A study of Mus musculus with 24 samples.

Results

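The genes described are those of the proteins of the cytosolic ribosome, read in the left brain hemisphere of 24 mice. Members were the protein-coding rows of the deposited gene counts whose mouse symbol starts with Rpl or Rps followed by a digit, or is Rpsa, Rplp0, Rplp1 or Rplp2. Symbols with -ps and the Rps6k kinases were left out, and a member needed at least 10 counts over the 24 libraries. Of 55421 gene rows, 86 met the symbol rule and 84 met both conditions. Rps6, with 9 counts, and Rpl10l, with 3 counts, fell below the minimum. Of the 84 members, 32 encode proteins of the small subunit (40S) and 51 carry a name of the large subunit (60S). The remaining one, Rps19bp1, encodes a protein that binds the small subunit protein Rps19 and is not itself a ribosomal protein. Rpl7l1, counted with the large subunit by its name, encodes a relative of Rpl7.

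All animals were C57BL/6J mice aged 3 months, of wild type or Nox2 knockout genotype. Nox2, encoded by Cybb, is the membrane-bound core of an NADPH oxidase of phagocytes, an enzyme that makes superoxide. Each mouse received 100 µl into the peritoneum once a day for 4 days. The 6 wild type and 6 knockout mice of the vehicle groups received phosphate-buffered saline (PBS). The other 6 wild type and 6 knockout mice received lipopolysaccharide (LPS), the cell wall component of gram-negative bacteria, at 1 µg per g body weight per day. The sources used here do not give the sex of the mice or the construct behind the knockout. The libraries count 3′ tags, close to 1 position per transcript, so counts of different genes can be compared without a correction for length.

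A cytosolic ribosome joins a small subunit, which reads the messenger RNA, to a large subunit, which forms the peptide bond. Nearly every ribosomal protein is needed in a single copy per ribosome, and the P stalk of the large subunit, built on Rplp0, recruits the translation factors. The messages of ribosomal proteins in mammals carry a 5′ terminal oligopyrimidine (TOP) tract, a C followed by further C and T bases, through which their translation is controlled by the mTOR pathway. Ribosomal protein genes have large numbers of processed pseudogenes in mammalian genomes.

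The start sites of the genes were read from the RefSeq promoter table for GRCm38.p6, which matched 64 of the 84 members with 76 start windows. The sequences below show the start of members with a pyrimidine motif near it, since a TOP tract lies at the start of the transcript. The marked motif is not always such a tract. Each runs from 15 bases before to 15 bases into the transcript on the coding strand, and capitals mark the letters CTTTC.
Rplp2: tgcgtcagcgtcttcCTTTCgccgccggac
Rps27rt: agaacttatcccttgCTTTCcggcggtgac
Rpl38: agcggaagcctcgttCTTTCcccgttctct
Rps26: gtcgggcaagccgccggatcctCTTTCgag
Rps15a: ctctCTTTCtgccatcttccctcgccggtg
Rpl27a: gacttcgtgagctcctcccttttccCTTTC
Rpl35: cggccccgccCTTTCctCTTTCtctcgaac
These windows lie at chr7:141447636-141447665 on the plus strand for Rplp2, chr9:114982725-114982754 on the minus strand for Rps27rt and chr11:114668565-114668594 on the plus strand for Rpl38. That of Rps26 is at chr10:128626492-128626521 on the minus strand, and that of Rps15a at chr7:118116133-118116162 on the minus strand. Rpl27a is at chr7:109519180-109519209 on the plus strand, and Rpl35 at chr2:39005117-39005146 on the minus strand. In Rplp2, Rps27rt and Rpl38 the motif began at the first base of the annotated transcript. In Rps26 it began at base 8 and in Rpl27a at base 11, whereas in Rps15a it lay wholly before the transcript.

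On the coding strand, CTTTC occurred within these 30 bases in 18 of the 76 member windows (23.7%), against 4.05% of all 32851 windows in the table. It began at the first transcribed base in 3 of the 76 (3.95%), against 0.137% of all windows. An unbroken run of at least 5 C or T bases that touched the start was present in 30.3% of member windows and 16.1% of all windows. Such a run held the first transcribed base or ended at the base before it, so it can lie wholly before the transcript. Within the whole 300 bases and on both strands, CCGGAAG, a form of the ETS factor motif, occurred in 34.2% of member windows against 8.86%. AAGATGGC, a form of the YY1 motif, occurred in 10.5% against 2.75%, searched in the same way. CTTTC was present near the start in 20% of the 25 windows of members that rose after LPS in wild type and in 25.6% of the 39 windows of the other tested members. These are matches of letters and no evidence of binding, and RefSeq starts can lie some bases away from the true start, for which no test was made.

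Libraries held 2340184 to 5256169 counts, and differed between animals of a group beyond sampling noise, with a chi-square per degree of freedom of 1.41 to 4.74 over pairs. Ribosomal RNA rows took 10.9 to 13.5% of counts per library. Wild type LPS replicates 1 and 2 stood apart from the other 4 libraries of their group: mitochondrial ribosomal RNA took 5.07% and 5.39% of their counts, against 3.39 to 3.596% in the others. Counts of called genes that rest on that group are therefore also given without these libraries. Cybb stood at 0.853 to 2.50 counts per 1000000 library counts (CPM, on scaled library sizes) in wild type PBS libraries and at 15.7 to 34.0 CPM in wild type LPS libraries. In libraries labelled knockout it was higher, at 63.1 to 76.2 CPM after PBS and 67.5 to 77.3 CPM after LPS. A 3′ tag outside the disrupted part of the gene does not check the genotype, and the sources used here do not give that part, so these groups are named by their labels.

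The members together held 565462 counts, a small share of every library, and the spread of levels among them was wide. Rps3, a small subunit protein at the entry of the messenger RNA channel, had the highest mean level over the 24 libraries, at 532 CPM. Rps14 followed at 490 CPM, Rpl8 at 354 CPM, Rps21 at 350 CPM and Rpl4 at 312 CPM. In wild type PBS libraries Rps3 was at 485 ± 17.2 CPM (SD, n = 6) and Rps14 at 417 ± 11.7 CPM. Their libraries did not overlap, whereas Rpl8 at 323 ± 10.6 CPM and Rps21 at 326 ± 19.9 CPM did not differ beyond their spread. The 10 highest members held 54.7% of all member counts. At the other end, Rpl24 had 13 counts over all libraries, Rpl10a 32, Rpl3l 35, Rpl39l 46 and Rps27a 79.

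Levels differed with how much of the end of a transcript is shared with other genes. For each member, the last 300 bases of its protein-coding transcripts in GENCODE M21 were split into every run of 50 bases, and runs found in the transcript of no other gene were counted. Of the 16 members with under 20% of such unique runs, the median total was 199.5 counts. The 46 members with 20 to 80% unique runs had a median of 2693.5 counts, and the 22 members with at least 80% had a median of 4380 counts. Spearman's rho between the unique share and the total was 0.44 over the 84 members, which share the 24 libraries. Rpl5, Rpl10 and Rpl36a had no unique run at all. Uniqueness did not fix the level of a single gene: Rpl3l and Rpl39l, both with 100% unique runs, were among the lowest, and Rplp1 reached 21935 counts with 33.1%. How reads with several matches were treated is not stated in the labels, so the level of a member with shared runs is uncertain and its part in the totals was not tested.

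**Figure D1:**
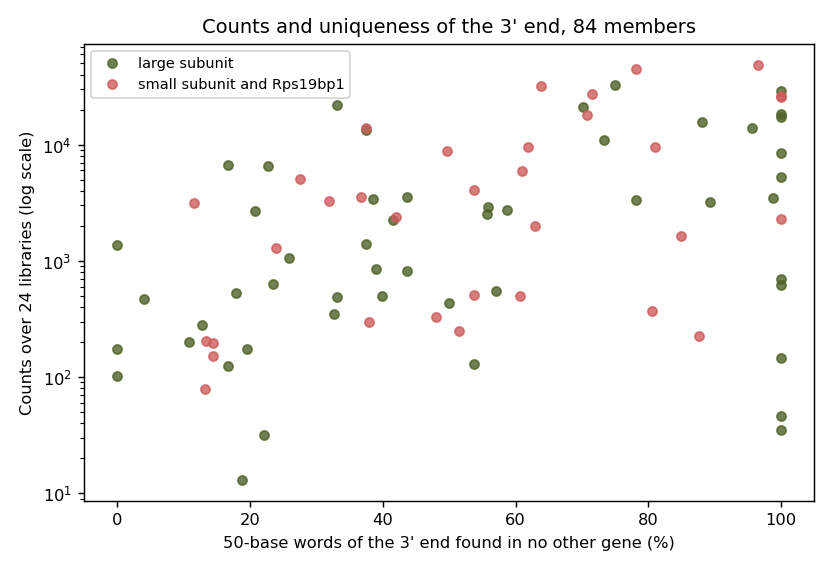
Total counts over 24 libraries (log scale) of each of the 84 members against the share of 50-base runs at its 3′ end that occur in no other annotated gene (%). Green points are large subunit members and red points small subunit members with Rps19bp1; among the 16 members under 20%, Rpl13 and Rps27rt alone lie above 1361 counts, and the 5 highest members lie at 63.75% or above.

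The count table also held 301 pseudogene rows named after ribosomal protein genes, of which 250 had at least 1 count. Together they held 25314 counts, or 4.05 to 4.93% of the member counts of a library. Pseudogene rows took 0.0225 to 0.0267% of counts in wild type PBS libraries and 0.0291 to 0.0325% in wild type LPS libraries, ranges that did not overlap. They took 0.0243 to 0.0293% after PBS and 0.0253 to 0.0314% after LPS in libraries labelled knockout, and these ranges did overlap. Counting members and pseudogene rows as one left the order of the group medians as it was for members alone, described next.

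The summed share of the members in a library was larger after LPS in both genotypes. In wild type mice it was 0.549% at the lowest, 0.559% at the median and 0.577% at the highest after PBS, and 0.661%, 0.676% and 0.701% after LPS. Every wild type LPS library lay above every wild type PBS library. The 4 LPS libraries other than replicates 1 and 2 were at 0.663 to 0.701%. In libraries labelled knockout the share was 0.552%, 0.571% and 0.594% after PBS, and 0.600%, 0.647% and 0.672% after LPS. These groups did not overlap either, while the LPS groups of the 2 genotypes did. Without the ribosomal RNA rows in the total, the shares were 0.629 to 0.661% and 0.753 to 0.796% in wild type, and 0.631 to 0.678% and 0.690 to 0.772% in libraries labelled knockout. The mean share after LPS was 1.21 times that after PBS in wild type and 1.12 times in libraries labelled knockout. No test was made on this sum. In bulk tissue, a change in the number of cells of a type and a change in the RNA per cell cannot be told apart.

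**Figure D2:**
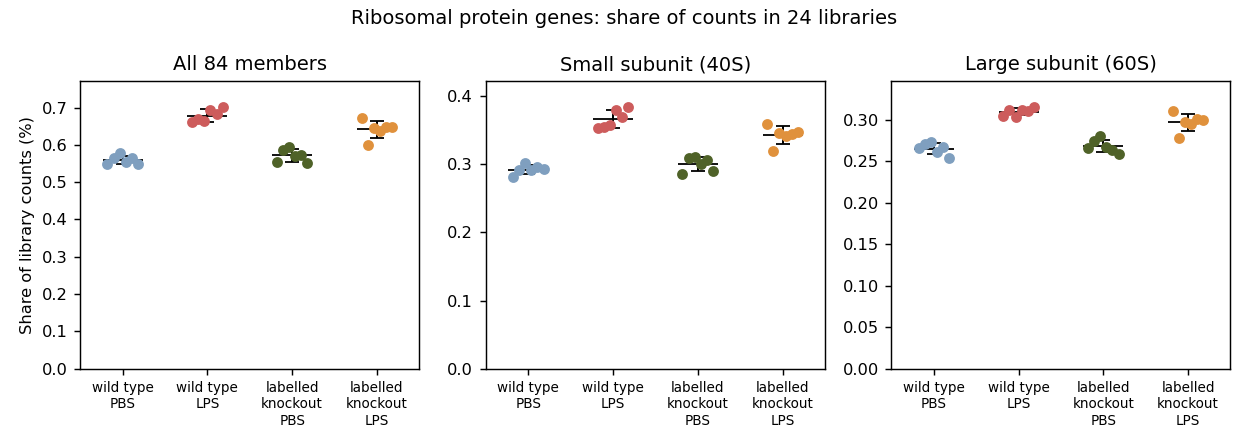
Share of library counts (%) held by all 84 members, by the small subunit and by the large subunit in 24 libraries. Points are libraries, horizontal bars the mean of 6 and whiskers the SD; in each panel, LPS libraries of wild type lie above all PBS libraries of wild type, and for all members the LPS libraries labelled knockout start at 0.600% against a highest PBS value of 0.594%.

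Both subunits took part. Small subunit members took 0.281 to 0.302% of counts in wild type PBS libraries and 0.354 to 0.384% in wild type LPS libraries. Large subunit members took 0.254 to 0.273% and 0.304 to 0.315%. In libraries labelled knockout, the small subunit went from 0.286 to 0.311% after PBS to 0.319 to 0.359% after LPS, without overlap. The large subunit took 0.259 to 0.280% and 0.278 to 0.311%. That overlap came from LPS replicate 2 of the labelled knockout alone, at 0.278%, and its other LPS libraries were at 0.294% or above. The ratio of large to small subunit counts was 0.867 to 0.947 in wild type PBS and 0.821 to 0.878 in wild type LPS libraries. Those 2 ranges overlapped through replicate 2 of the LPS group, at 0.878, and the 4 libraries other than replicates 1 and 2 were at 0.821 to 0.849. Libraries labelled knockout were at 0.859 to 0.929 after PBS and 0.857 to 0.874 after LPS.

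Of the 84 members, 73 passed the filter on low counts and were tested with all 14380 genes in edgeR's quasi-likelihood fit. The 11 others were Rps27, Rps27a, Rpl3l, Rpl10, Rpl10a, Rpl11, Rpl24, Rpl27, Rpl28, Rpl36a and Rpl39l. A gene was called when its Benjamini-Hochberg adjusted p was under 0.05. In wild type mice 27 of the 73 members rose after LPS and 2 fell, where 10.9% of all genes tested were called higher and 7.12% lower. The median log2 fold change of the members was 0.22, against -0.0088 over all genes tested, and 59 of 73 values were positive. All 6 LPS libraries lay above all 6 PBS libraries for 21 members, as they did for 5.88% of all genes, and below them for 0 members and 2.06% of all genes. Leaving out replicates 1 and 2 of the LPS group gave 24 members called higher and 1 lower, where 11.7% and 8.05% of all genes were called. Of the members described below as called in wild type, Rps27rt and Rps19bp1 lost the call in that fit. The changes were small: the largest log2 fold change among the called members was 0.52.

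By subunit, 15 of 30 tested small subunit members rose in wild type, with a median log2 fold change of 0.25, and 12 of 42 large subunit members rose and 1 fell, with a median of 0.18. Without wild type LPS replicates 1 and 2, 12 small subunit members rose, and 12 large subunit members rose and 1 fell, with medians of 0.24 and 0.22. Calls followed the level of the gene. Among the 27 members with a mean of at least 50 CPM, 22 rose and 1 fell; among the 46 below it, 5 rose and 1 fell. Without these libraries the counts were 21 and 1 in the first set, and 3 and 0 in the second. The median SE was 0.055 in the first set and 0.17 in the second, and their median log2 fold changes were 0.26 and 0.15. At an SE of 0.17, a change of 0.26 is under 2 SE, so a change of that size could go uncalled in a typical member of the second set. The median change of that set was smaller as well, and why fewer of its members were called was not tested.

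Rps14, a protein of the small subunit platform, was at 406, 414 and 440 CPM (lowest, median and highest library) in wild type PBS and at 495, 588 and 640 CPM in wild type LPS libraries. All LPS libraries were above all PBS libraries, with replicates 4, 5 and 6 highest. Its log2 fold change was 0.47 ± 0.05 (SE, adjusted p = 2.81e-10 in edgeR), and 0.55 ± 0.05 without LPS replicates 1 and 2. Rps20, of the small subunit head, was at 222, 239 and 274 CPM after PBS and 303, 340 and 357 CPM after LPS. The groups did not overlap, and the log2 fold change was 0.48 ± 0.05 (adjusted p = 7.77e-10). Rps9, which binds the body of the small subunit, was at 78.6, 82.1 and 102 CPM after PBS and 108, 120 and 141 CPM after LPS. All LPS libraries were again higher, by 0.49 ± 0.07 on the log2 scale (adjusted p = 1.4e-07).

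Rplp0, the base of the P stalk, had the largest log2 fold change among the members called in wild type. It was at 72.4, 80.1 and 91.4 CPM after PBS and at 107, 112 and 132 CPM after LPS. The groups were apart, with a log2 fold change of 0.52 ± 0.06 (adjusted p = 2.84e-09), and 0.56 ± 0.06 without LPS replicates 1 and 2. The other stalk proteins bind Rplp0 as dimers. Rplp1 went from 199, 218 and 231 CPM to 247, 269 and 289 CPM without overlap, a log2 fold change of 0.32 ± 0.05 (adjusted p = 1.49e-06). Rplp2 was at 19.0, 26.3 and 33.2 CPM after PBS and 30.1, 32.8 and 39.3 CPM after LPS. These groups overlapped, and Rplp2 was called at 0.40 ± 0.10 (adjusted p = 0.00305). All 3 stalk genes thus rose in wild type. Rpsa, known also as the laminin receptor, was at 17.1, 18.7 and 24.7 CPM and 20.3, 23.3 and 27.0 CPM, and was not called (0.25 ± 0.11, adjusted p = 0.117).

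Further abundant members rose in wild type. Rps3, the most abundant, was at 462 to 509 CPM in wild type PBS and 534 to 643 CPM in wild type LPS libraries, with a log2 fold change of 0.28 ± 0.05 (adjusted p = 7.21e-06). Its groups did not overlap. Rps26, at the messenger RNA exit, was at 131 to 153 CPM and 168 to 187 CPM (0.33 ± 0.05), and Rps28 at 55.8 to 61.4 CPM and 69.2 to 90.7 CPM (0.43 ± 0.07). Rpl14 of the large subunit was at 157 to 179 CPM and 194 to 240 CPM (0.34 ± 0.05). Rpl8, which lies near the peptidyl transferase centre, was at 311 to 337 CPM and 351 to 406 CPM (0.26 ± 0.05, adjusted p = 3.9e-05), and Rps21 at 304 to 355 CPM and 367 to 418 CPM (0.25 ± 0.04, adjusted p = 2.75e-05). These 5 genes also had no overlap between the groups.

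Not every abundant member was called. Rpl4, the most abundant member called in no comparison, was at 268, 299 and 339 CPM after PBS and 293, 317 and 343 CPM after LPS in wild type. The groups overlapped over most of their range, with a log2 fold change of 0.09 ± 0.05 (adjusted p = 0.277). Rps24 was at 261 to 302 CPM and 270 to 345 CPM, with 0.12 ± 0.05 (adjusted p = 0.0826). Rpl22l1 was at 58.4 to 80.5 CPM and 58.7 to 91.6 CPM, with 0.02 ± 0.08. Rpl27a and Rps19bp1 were the members that fell. Rpl27a, of the large subunit, was at 58.4, 62.7 and 71.0 CPM after PBS and 51.1, 51.5 and 59.9 CPM after LPS. Its groups overlapped through replicate 4 of the LPS group, and it fell by 0.265 on the log2 scale (SE 0.08, adjusted p = 0.0149). That call was lost without wild type PBS replicate 3 (adjusted p = 0.0546). In libraries labelled knockout Rpl27a was at 53.5 to 66.5 CPM after PBS and 42.3 to 62.7 CPM after LPS. It was not called there (-0.21 ± 0.08, adjusted p = 0.106 in edgeR), except without LPS replicate 2 of the labelled knockout (adjusted p = 0.0385). Rps19bp1 was at 24.4 to 31.6 CPM and 16.8 to 28.6 CPM, a log2 fold change of -0.30 ± 0.10 (adjusted p = 0.0204). It was not called without wild type LPS replicates 1 and 2 (adjusted p = 0.112), without replicate 2 alone (0.0795) or without replicate 3 alone (0.0624).

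**Figure D3:**
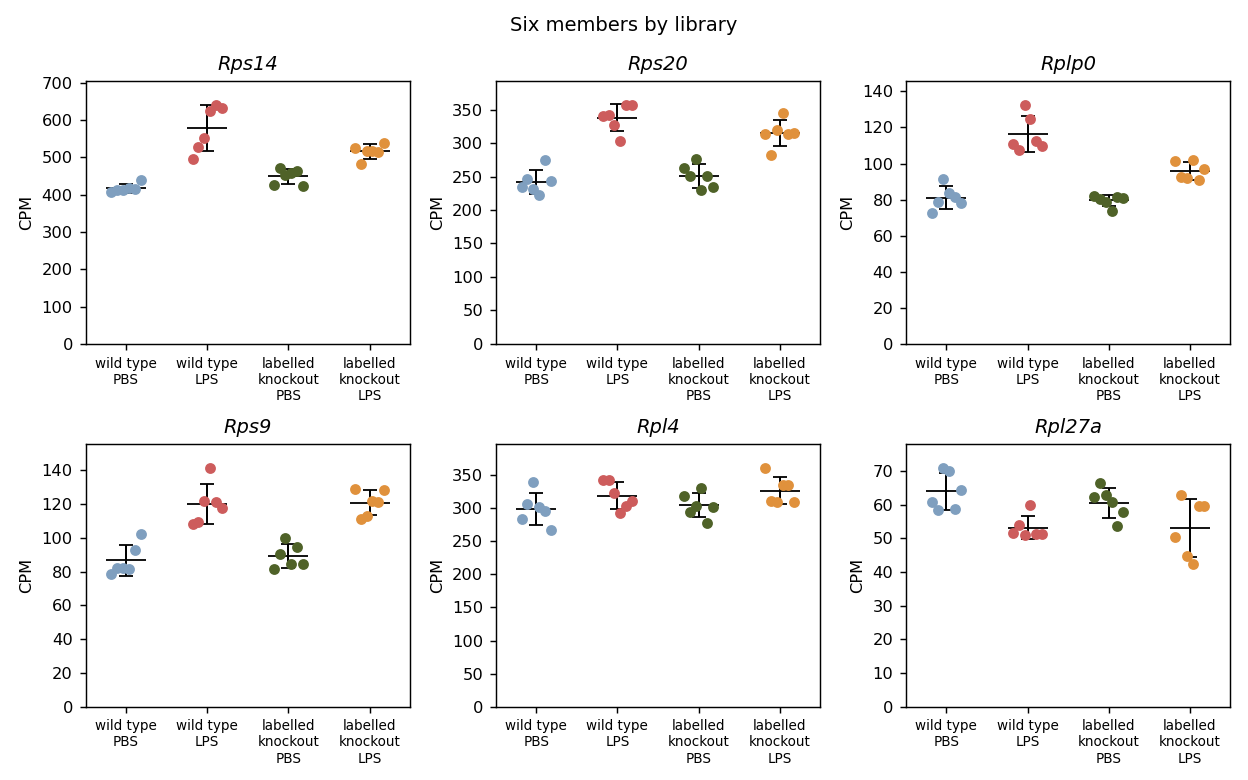
Level (CPM) of Rps14, Rps20, Rplp0, Rps9, Rpl4 and Rpl27a in 24 libraries. Points are libraries, horizontal bars the mean of 6 and whiskers the SD. Rplp0 in wild type rises from 72.4 to 91.4 CPM after PBS to 107 to 132 CPM after LPS, while Rpl4 overlaps between all groups. Rpl27a was called lower after LPS in wild type only, and its PBS and LPS ranges overlap in both genotypes.

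In libraries labelled knockout, 16 of 73 members rose after LPS and 0 fell, where 7.05% of all genes tested were called higher and 3.82% lower. The median log2 fold change of the members was 0.14, against -0.0015 over all genes. At an unadjusted p under 0.05 there were 35 members, 32 of them higher, and DESeq2 also called 16. The share of all genes at an unadjusted p under 0.05 is not given here or below, so such counts have no background to be read against. All LPS libraries lay above all PBS libraries for 10 members and below for 1, Rps19bp1, as they did for 4.24% and 1.72% of all genes. The count of 16 changed with single libraries, and ranged from 10 to 20 when 1 was left out. It was 10 without PBS replicate 4 and 10 without LPS replicate 1 of the labelled knockout. These left-out fits called 1317 to 1630 of all genes, against 1014 higher and 550 lower with all libraries. The members' median log2 fold change was 0.136 to 0.157 in them. Of the small subunit members 10 of 30 rose, and of the large subunit members 6 of 42. Of the 27 members with at least 50 CPM 13 rose, and of the 46 below it 3.

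Rps9 had the smallest p in this comparison. It was at 81.6, 87.4 and 99.7 CPM after PBS and 111, 121 and 129 CPM after LPS. The groups did not overlap, with a log2 fold change of 0.44 ± 0.07 (adjusted p = 2.21e-06 in edgeR). Rps20 was at 229, 251 and 276 CPM and 282, 315 and 345 CPM, also apart, with 0.33 ± 0.05 (adjusted p = 6.89e-06). Rpl32 was at 175, 205 and 229 CPM and 237, 255 and 276 CPM, apart as well, with 0.35 ± 0.06 (adjusted p = 1.91e-05). In wild type Rpl32 was at 184 to 226 CPM and 242 to 292 CPM, with 0.33 ± 0.06. These 3 members thus rose in both genotypes.

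Further members called in libraries labelled knockout changed by less. Rplp0 was at 73.9, 80.8 and 81.9 CPM after PBS and 91.0, 94.7 and 102 CPM after LPS, apart, with 0.28 ± 0.06 (adjusted p = 0.00115). Rps14 was at 424, 456 and 472 CPM and 481, 517 and 539 CPM, apart, with 0.20 ± 0.05 (adjusted p = 0.00474). Rps26 (0.23 ± 0.05) and Rpl14 (0.23 ± 0.05) rose as well. Calls near the threshold were less firm. Rps3 (0.15 ± 0.05, adjusted p = 0.028), Rpl8 (0.15 ± 0.05, adjusted p = 0.0276) and Rps28 (0.24 ± 0.07, adjusted p = 0.0166) were called with all libraries. Leaving out 1 library lost Rps3 in 5 fits, Rpl8 in 6 and Rps28 in 3, and Rpl26 (0.17 ± 0.06, adjusted p = 0.0491) in 17 of 24.

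The lists called higher in the 2 genotypes, which share no library, had 13 members in common. These were 48.1% of the 27 called in wild type and 81.25% of the 16 called in libraries labelled knockout. Rpl26 and Rpl7a were among those called in the latter alone. Rpl7a held 30 counts after PBS and 63 after LPS over 6 libraries each, and its log2 fold change of 1.07 ± 0.34 was the largest of all members. Of all 73 tested members, 45 had the larger log2 fold change in wild type. Among the 30 called higher in either genotype the count was 25. However, 27 of these 30 were called in wild type, a choice that by itself favours a larger wild type value. A member called in one genotype and not in the other is not thereby shown to differ between them; the interaction below tests that.

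**Figure D4:**
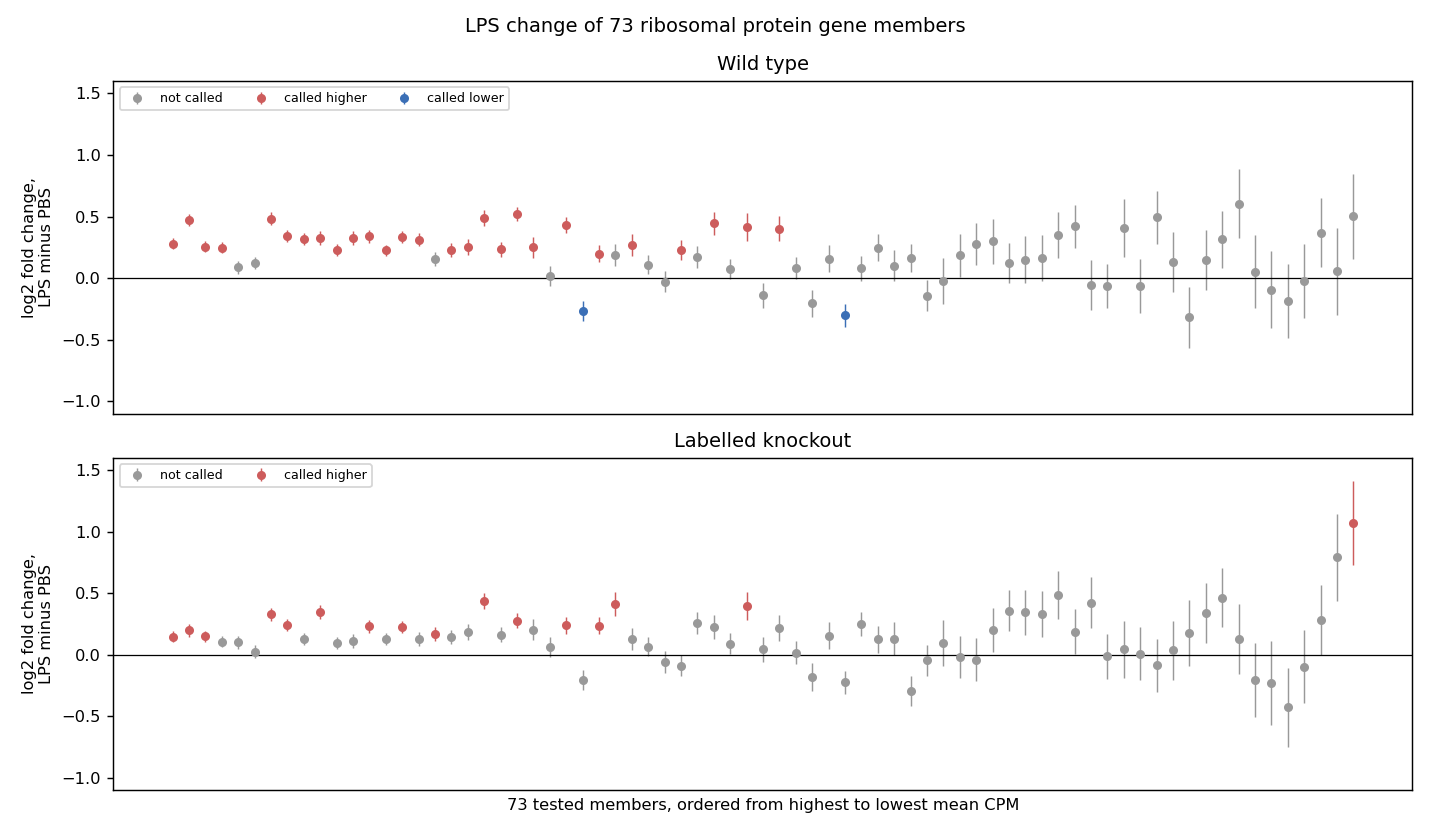
Log2 fold change (LPS minus PBS) of 73 tested members in wild type (top) and in libraries labelled knockout (bottom), ordered from the highest to the lowest mean CPM; whiskers are SE. Red points rose and blue points fell at an adjusted p under 0.05; most called members stand to the left, where whiskers are short, and 27 rose in wild type against 16 in libraries labelled knockout.

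Between genotypes after PBS, 0 of 73 members were called, where 0.0417% of all genes tested were called higher and 0.0904% lower in libraries labelled knockout. At an unadjusted p under 0.05 edgeR gave 3 members, Rps14 and Rps16 among them, and DESeq2 called 0. After LPS, 0 members were higher and 1 was lower in libraries labelled knockout, where 0.264% of all genes were called higher and 0.786% lower. That member was Rplp0, for which all LPS libraries labelled knockout (91.0 to 102 CPM) lay below all wild type LPS libraries (107 to 132 CPM). Its log2 fold change was -0.28 ± 0.06 (adjusted p = 0.00934), and 0.389% of all genes had groups apart in this way. The call was lost without wild type LPS replicate 3 (adjusted p = 0.0521). At an unadjusted p under 0.05 there were 13 members, all lower in libraries labelled knockout, a count without a background share over all genes. Without wild type LPS replicates 1 and 2 the count called lower was 6 (Rps14, Rplp0, Rpl37a, Rpl31, Rplp1 and Rps19) and the count called higher 0. The calls over all genes rose in that fit as well, to 2.62% lower and 1.21% higher.

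The interaction, the LPS change in libraries labelled knockout minus that in wild type, gave 0 called members in edgeR, as did nearly all genes (0% higher and 0.00695% lower). The median over members was -0.07, against -0.0020 over all genes, and 45 of 73 values were negative. At an unadjusted p under 0.05 there were 10 members, all negative, again without a background share over all genes. Rps14 had the smallest p, with -0.28 ± 0.07 (adjusted p = 0.199). DESeq2 called Rps14 alone (adjusted p = 0.019), and edgeR called it without wild type LPS replicate 1 (0.0306) or without replicates 1 and 2 (-0.36, adjusted p = 0.00188), a fit in which 1.12% of all genes were called lower and 0.572% higher. By p, Rplp0 (-0.24 ± 0.09), Rpl31 (-0.46 ± 0.16), Rplp1 (-0.19 ± 0.07), Rpl41 (-0.32 ± 0.12) and Rps19 (-0.21 ± 0.08) followed, with adjusted p of 0.328 to 0.357 in edgeR. With all libraries, a smaller LPS change in libraries labelled knockout thus passed the threshold for Rps14 in DESeq2 and for no member in edgeR.

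Some members have a paralog or share runs at their 3′ end with other genes. Reads from shared runs can be split between rows. This does not hold for every pair: Rpl3l and Rpl39l had 100% unique runs, so their ends shared none with Rpl3 and Rpl39. Rpl22, at 156 to 167 CPM after PBS and 179 to 196 CPM after LPS in wild type, rose by 0.22 ± 0.05 on the log2 scale (adjusted p = 0.000429), whereas its paralog Rpl22l1 was not called. Rpl7 (0.19 ± 0.17) and Rpl7l1 (-0.03 ± 0.09) were not called. Rpl3 (0.15 ± 0.19), Rpl36al (0.15 ± 0.24), Rpl39 (0.17 ± 0.09), Rps4x (0.61 ± 0.28), Rpl29 (0.28 ± 0.17) and Rpl26 (0.15 ± 0.06) were not called in wild type either. The partners Rpl3l, Rpl36a and Rpl39l were not tested, with 35, 174 and 46 counts in all, nor were Rpl10, with 103, and Rpl27, with 124.

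The family of Rps27, a zinc finger protein of the small subunit, was read mainly through its copies. Rps27 itself held 153 counts over 24 libraries. Rps27rt, a retrogene copy, held 3145, with 11.6% unique runs at its end. Rps27rt was at 21.7, 29.6 and 38.4 CPM after PBS and 33.8, 35.7 and 47.5 CPM after LPS in wild type. The groups overlapped, and it rose by 0.42 ± 0.12 on the log2 scale (adjusted p = 0.00749). It rose by 0.40 ± 0.12 in libraries labelled knockout (adjusted p = 0.0154), a call lost without LPS replicate 1 (adjusted p = 0.0828) or PBS replicate 4 (0.0616) of the labelled knockout. The wild type call was lost without LPS replicates 1 and 2 (adjusted p = 0.0999). Rps27l, with 84.9% unique runs, was not called in either genotype (0.10 ± 0.13 and 0.13 ± 0.13).

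Genes of related function were read beside the members. Rack1, a scaffold on the small subunit that the symbol rule does not take in, rose in both genotypes, with log2 fold changes of 0.40 ± 0.05 in wild type (adjusted p = 8.01e-08) and 0.23 ± 0.05 in libraries labelled knockout (adjusted p = 0.00192). Of 23 translation factors and other genes listed as TOP genes, 10 rose in wild type and 0 fell, with a median of 0.20, and 5 rose in libraries labelled knockout. These were 43.5% and 21.7% of the list, against 10.9% and 7.05% of all genes tested. Pabpc1, which binds the poly(A) tail, rose by 0.40 ± 0.05 and 0.36 ± 0.05. Eif3f, a subunit of initiation factor 3, rose by 0.44 ± 0.05 and 0.23 ± 0.05, and Eif3h by 0.32 ± 0.05 in wild type. Vim, an intermediate filament gene of astrocytes, endothelium and myeloid cells, rose by 1.58 ± 0.09 and 1.27 ± 0.10.

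Other lists moved less, except the pseudogene rows. Over all genes tested, 10.9% were called higher and 7.12% lower in wild type, and 7.05% and 3.82% in libraries labelled knockout. Of 28 other initiation factors, 2 rose and 2 fell in wild type, among them Eif2b5 (0.23 ± 0.07) and Eif4g3 (-0.32 ± 0.08). Of 60 genes of ribosome biogenesis, 3 rose and 3 fell, with a median of -0.0016; Mrto4, a stalk assembly factor, rose by 0.37 ± 0.10 and Polr1d, a subunit of RNA polymerases I and III, changed by -0.38 ± 0.08. For libraries labelled knockout, edgeR called 0 of the 28 and 0 of the 60, with 3 and 3 at an unadjusted p under 0.05, and DESeq2 called 1 and 0. Of 30 tested regulators of ribosomal protein synthesis, 2 rose in wild type (6.67%, below the share of all genes). They were Eef2k, the kinase of elongation factor 2 (0.43 ± 0.10), and Rps6ka1 (0.38 ± 0.09). In the labelled knockout 2 of the 30 rose and 1 fell, near the shares of all genes. Of 75 mitochondrial ribosomal protein genes, which belong to a separate ribosome, 2 rose and 0 fell in wild type, with a median of -0.02, and 0 rose and 1 fell in libraries labelled knockout. Of 25 tested pseudogene rows named Rpl or Rps, 4 rose in wild type (16%) and 2 in libraries labelled knockout (8%). Their median log2 fold change was 0.30 in wild type and 0.12 in libraries labelled knockout, with 21 of 25 values positive in each. The members' medians were 0.22 and 0.14. The median SE of the pseudogene rows was 0.24 in both comparisons. Without wild type LPS replicates 1 and 2, 9 TOP genes rose and 1 fell in wild type, 4 regulators rose and 1 fell, and 2 mitochondrial ribosomal protein genes rose and 1 fell. In that fit 11.7% of all genes were called higher and 8.05% lower. The counts of initiation and biogenesis genes were as with all libraries, and Rack1 had a log2 fold change of 0.47 ± 0.05.

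**Figure D5:**
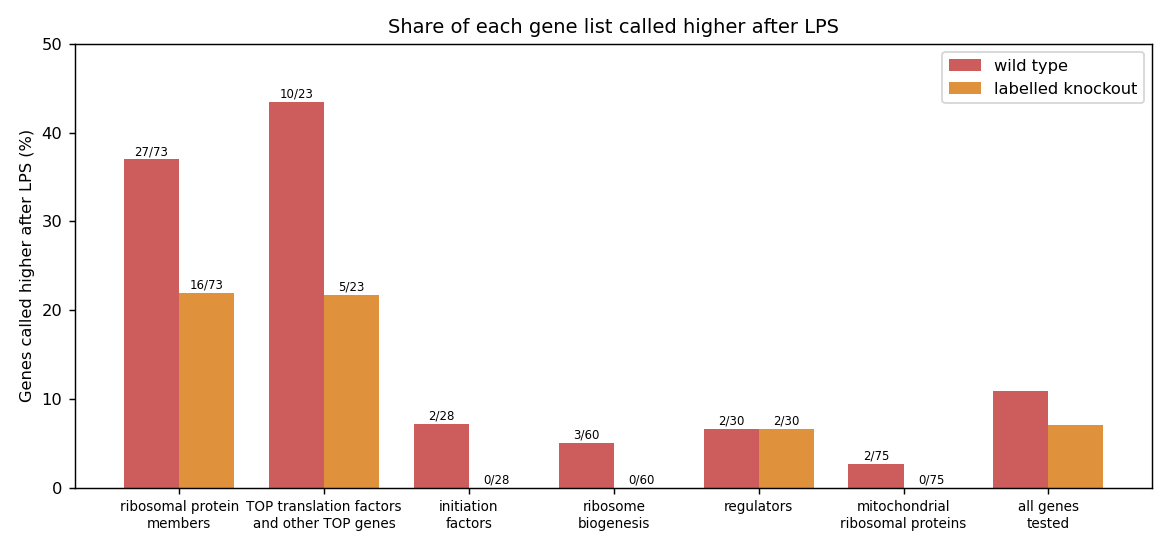
Share of each gene list called higher after LPS (%, edgeR adjusted p under 0.05) in wild type (red) and in libraries labelled knockout (orange), with counts of called over tested genes above the bars. The ribosomal protein members reach 27 of 73 in wild type, mitochondrial ribosomal proteins 2 of 75, and all genes tested 10.9%.

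Markers of several cell types moved with the same injection. Of 10 microglia markers, 9 rose in each genotype; their summed level went from 315 to 391 CPM to 882 to 1077 CPM in wild type, and from 307 to 339 CPM to 748 to 936 CPM in libraries labelled knockout. All 8 tested markers of blood monocytes and neutrophils rose in both genotypes, and the sum of all 10 listed went from 20.8 to 29.8 CPM to 234 to 862 CPM in wild type, and from 19.2 to 47.5 CPM to 176 to 504 CPM in libraries labelled knockout. Of 10 endothelial markers 9 rose in each genotype, and their sum went from 336 to 369 CPM to 654 to 764 CPM in wild type and from 314 to 374 CPM to 571 to 656 CPM in libraries labelled knockout. Of 10 neuron markers 5 fell in wild type and 3 in libraries labelled knockout, with sums of 7868 to 8132 CPM and 7003 to 7311 CPM in wild type, and 7883 to 8178 CPM and 7103 to 7561 CPM in libraries labelled knockout. Of 10 astrocyte markers 5 rose and 1 fell in wild type, with sums of 4686 to 4785 CPM and 4988 to 5268 CPM. Of 10 oligodendrocyte markers 2 rose and 5 fell, with sums of 4731 to 5383 CPM and 4026 to 5100 CPM. Sums in libraries labelled knockout were 4673 to 4894 CPM and 4895 to 5300 CPM for astrocytes, and 4630 to 5117 CPM and 4161 to 4864 CPM for oligodendrocytes. All 4 tested erythrocyte markers fell in both genotypes, with sums over all 5 listed of 28.2 to 80.5 CPM after PBS and 0.982 to 18.4 CPM after LPS in wild type, and of 35.9 to 363 CPM and 2.47 to 55.4 CPM in libraries labelled knockout. Of 8 choroid plexus and ependyma markers 1 rose and 1 fell in wild type, and of 5 olfactory markers 1 fell. Between genotypes after PBS, 1 of 10 endothelial and 4 of the 5 olfactory markers were lower in libraries labelled knockout, with olfactory sums of 33.8 to 59.7 CPM against 44.8 to 142 CPM in wild type. After LPS, libraries labelled knockout were lower for 3 of 10 endothelial markers (median log2 fold change -0.32), 2 of 10 microglia markers (-0.22), 1 of 8 monocyte and neutrophil markers (-0.65, with 8 of 8 values negative), 1 of 10 astrocyte markers and 3 of 5 olfactory markers, and higher for 1 of 8 choroid plexus and ependyma markers. Without wild type LPS replicates 1 and 2 the counts lower in this comparison were 4 of 10, 3 of 10, 4 of 9, 2 of 10 and 5 of 5. In that fit 2 of 10 oligodendrocyte markers were lower and 1 higher, 1 of 10 neuron markers was higher, and of 8 listed genes of RNA quality and ribosomal RNA 5 were higher and 1 lower. These shifts stood beside the lower Rplp0 after LPS. In the 4 wild type LPS libraries other than replicates 1 and 2, the sums were 964 to 1077 CPM for microglia, 400.5 to 862 CPM for monocytes and neutrophils, and 724 to 764 CPM for endothelium. In each PBS group 1 of the 10 monocyte and neutrophil markers was at 0, and no other listed marker was at 0 in a group. The part of these cell types in the members' changes was not tested.

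The genes whose log2 CPM followed the mean log2 CPM of the members most closely over the 24 libraries were Klhl6 (Pearson's r = 0.942), Ostf1 (0.941), Vim (0.931), Alox5ap (0.926) and Tyrobp (0.924). Tyrobp encodes an adaptor of myeloid receptors, and Alox5ap a protein of leukotriene synthesis. All points share the 24 libraries and the split by injection, so the values describe likeness only.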

How the data were processed

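Per the labels' protocols, RNA of the homogenised left hemisphere (100 ng) entered the QuantSeq 3′ kit. The authors deposited raw whole-number counts per Ensembl gene. Per the submitters' processing notes, these came from bcl2fastq, STAR 2.7.3a and featureCounts (Subread 2.0.0) on GRCm38 (mm10); DESeq2 1.26.0 under R 3.6.1 is named too. The sources used here do not give the annotation release, strand setting or treatment of duplicates and of reads with several matches, so members with near copies and overlapping genes are uncertain. Symbols were given for 55154 of 55421 rows. The 267 rows without one took 0.00933 to 0.022% of a library's counts and were kept.

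The 24 libraries (4 groups of 6 animals) entered 1 fit in edgeR 4.0.16 (R 4.3.3): TMM factors, filterByExpr with a minimum count of 10, a mean per group, 20 residual degrees of freedom, and Benjamini-Hochberg adjustment over 14380 genes in each of 5 comparisons. The procedure was also run on simulated data with larger changes than most members showed, and the outcome is not given here. That run does not show how well changes of the members' size are recovered. CPM use TMM library sizes. DESeq2 1.42.0 and other factors, filters and left-out libraries were alternatives. Named members were up to 10 called per direction by smallest p, members with near copies, the stalk and Rpsa, the 5 highest and lowest by level, and the 3 highest never called. From other lists, genes were taken from the 4 with the smallest p in wild type. Rps16, Rps19, Rpl7a, Rpl31, Rpl37a and Rpl41 were named after their values were seen. Results of some genes are not reported here. Members and lists were chosen with earlier results of these data known.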

Additional observations from a re-analysis of the deposited data

Results flagged for a closer look

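Of 128 sets of 6 libraries examined (the named, tested members, the members' summed share and the ratio of the subunits, in each group), 5 held a highest or lowest library whose gap to its neighbour, over the range of the group, was above Dixon's critical value for groups of 6. Chance flags about 1 in 20 sets. Rps14 was at 439.5 CPM in wild type PBS replicate 6, with the next library at 416.7 CPM. Rpl27a was at 59.9 CPM in wild type LPS replicate 4, above 53.9 CPM. Rpl7l1 was at 29.9 CPM in PBS replicate 5 of the labelled knockout, below 38.1 CPM in the next. In LPS libraries labelled knockout, Rps4x was at 5.10 CPM in replicate 2, above 3.59 CPM, and Rpl29 at 12.7 CPM in replicate 5, above 8.96 CPM.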

How the results depend on the processing

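Of 30 calls of named members, 21 held in each of the 24 fits without 1 library and the 9 other settings, and none of the named results reversed. Leaving out 1 library gave 25 to 28 members higher and 1 to 2 lower after LPS in wild type, and 10 to 20 higher and 0 to 1 lower in libraries labelled knockout. It gave 0 to 4 lower in libraries labelled knockout after LPS and 0 to 1 in the interaction. Over all genes, these fits called 2214 to 2754 after LPS in wild type and 1317 to 1630 in libraries labelled knockout, both directions together. With all libraries the calls over all genes were 1572 higher and 1024 lower in wild type, and 1014 and 550 in libraries labelled knockout. The members' median log2 fold change ranged from 0.204 to 0.238 in wild type, 0.136 to 0.157 in libraries labelled knockout, 0.00236 to 0.0315 between genotypes after PBS, -0.0616 to -0.0333 after LPS and -0.0890 to -0.0449 in the interaction. Leaving out wild type LPS replicates 1 and 2 gave 1 member lower in wild type, 6 lower in libraries labelled knockout after LPS and 1 lower in the interaction. Fitting only the groups compared gave 1 lower in wild type, and DESeq2 gave 1 lower in the interaction. With the replicate number as a block, 28 members rose in wild type and 18 in libraries labelled knockout, and 2 instead of 1 were lower in libraries labelled knockout after LPS. The calls over all genes after LPS with the block are not given here. Deviations of log2 CPM from the group mean correlated at -0.0766 to 0.165 between same-numbered libraries of different groups. In every pair of groups the mean was higher for the same number (0.00920 to 0.0469) than for other numbers (-0.00937 to -0.00172). From 1 to 3 of 6 libraries correlated best with their own number. Whether libraries of a number share a batch was not tested, and the numbers were not taken as pairs. Over all genes, the 151 calls between genotypes after LPS became 561 without the pair of libraries, 273 with the block and 293 with no filter. The 19 calls after PBS became 36, 39 and 88 in the same settings and 33 with only the groups compared, and 13 to 32 without 1 library. The single interaction call became 249, 8 and 67, 25 with DESeq2, 4 without ribosomal RNA and pseudogene rows, and 1 to 20 without 1 library; after LPS these gave 72 to 289. The cause of these shifts was not tested. Estimates were less precise for the members under 50 CPM, whose median SE was 0.17.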
